A study of Mus musculus with 8 samples.

Results

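The cytosolic ribosomal protein genes were taken as every gene symbol in the files that starts with Rpl or Rps and a digit, plus Rplp0, Rplp1, Rplp2 and Rpsa, without Rps6k kinases and names containing -ps. The rule found 86 of 22552 genes, 52 with large-subunit names and 34 with small-subunit names. They were measured in RNA bound to the ribosomes of Ucp1-expressing cells from inguinal white adipose tissue (iWAT, 3 libraries), perigonadal white adipose tissue (pgWAT, 2 libraries) and interscapular brown adipose tissue (BAT, 3 libraries). The tissue came from 6-week-old females of the strain labelled C57B/6 UCP1-TRAP. All groups shared the same history: breeding at 30 °C, room temperature from weaning at 3 weeks, then 4 °C from 4 weeks of age for 2 weeks. In translating ribosome affinity purification (TRAP) a ribosomal protein fused to GFP is made in 1 cell type, here under the control of Ucp1, and an antibody against GFP pulls down the tagged ribosomes with their mRNA. The groups therefore hold only RNA recovered with such ribosomes, and neither an untagged control nor total RNA was used here. The labels do not say whether the libraries came from separate animals, so p-values measure the spread between these libraries. In such bulk samples, fewer marked cells and less RNA per cell cannot be told apart.

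Ribosomal proteins are the protein part of the 40S and 60S subunits, which also hold ribosomal RNA. Most are needed in equal numbers, and cells keep them in step largely at translation: many of these mRNAs begin with a C and a run of pyrimidines, the 5' terminal oligopyrimidine (TOP) motif, through which mTORC1 signalling turns their translation up or down together. In thermogenic fat, cold drives adipocytes to enlarge their mitochondrial and protein content, which takes ribosomes. Rps19bp1, which the naming rule includes, encodes an S19-binding regulator of Sirt1 and is no ribosomal subunit. Rps4y2 is listed by RefSeq as Rps4l, a transcribed pseudogene, and enters the counts only through its name.

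The TOP motif, read here as a C at the listed start base followed by at least 4 bases that are each C or T, on the gene's own strand, was looked up in RefSeq promoter sequences of GRCm38.p6. Of 65 members with an entry, 13 (20%) had it at a listed start, as did 3.01% of 27025 genes. With the start allowed to move by 5 bases in either direction, the shares were 44.6% and 21.2%. The following 40 bases, 20 before and 20 from the start, show the motif in capitals for 4 members with it, then 3 members described below without it at this exact base.
Rps6: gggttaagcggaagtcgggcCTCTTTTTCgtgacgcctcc
Rpl35: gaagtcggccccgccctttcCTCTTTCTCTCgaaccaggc
Rpl28: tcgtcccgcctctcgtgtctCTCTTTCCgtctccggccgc
Rplp2: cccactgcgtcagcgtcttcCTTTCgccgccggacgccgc
Rpl31: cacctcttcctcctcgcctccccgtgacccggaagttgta
Rps28: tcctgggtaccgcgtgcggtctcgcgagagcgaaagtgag
Rpl41: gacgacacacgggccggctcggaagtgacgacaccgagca
In the order printed, they lie at chr4:86857348-86857387 (minus strand), chr2:39005112-39005151 (minus), chr7:4792945-4792984 (plus), chr7:141447631-141447670 (plus), chr1:39367831-39367870 (plus), chr17:33824543-33824582 (minus) and chr10:128549149-128549188 (minus). The pyrimidine run was 11 bases in Rpl35, 9 in Rps6 (the S6 kinase substrate of the small subunit), 8 in Rpl28 and 5 in Rplp2. A missing motif says only that these letters are not at this base.

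The members also shared features that the rule did not use. Their longest deposited transcripts were short, with a median of 717.5 nt against 2243 nt over all genes, and 66 of the 86 were under 1000 nt. They lay on 19 chromosomes, with 14 on chromosome 7. Of 114 small nucleolar RNA genes in the files, 30 sat in introns of 21 members, such as Snord32a, Snord33, Snord34 and Snord35a in Rpl13a. The coding sequences had many near-identical pseudogene copies (at least 95% identity over 80% of the length): the median was 4 copies, 16 members had 10 or more, Rpl21 had 56, and 8 had none. Level did not follow copy number across members (Spearman's rho 0.06, across genes), whereas longer transcripts had lower FPKM (rho -0.48).

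Estimated fragments on listed genes were 268233 to 570764 in iWAT, 627895 to 1181572 in pgWAT and 368221 to 404193 in BAT. The median member was covered by 33.2 estimated fragments in the shallowest library, iWAT 3, and by 102.3 in the deepest, pgWAT 1. The iWAT 3 library stood apart, with a summed FPKM of 75925 against 122258 to 206549 in the others, so results resting on it are given without it. Brown and beige markers were present throughout: all 8 listed averaged at least 1 FPKM in each group, and Ucp1 ranged from 592 in iWAT 3 to 1593 in pgWAT 1. Markers of other cells differed by depot. The 18 mammary luminal and milk genes summed to 119 to 154 FPKM in iWAT, 5.32 to 7.46 in pgWAT and 8.31 to 23.9 in BAT, where 15, among them Krt8, Krt18 and Epcam, were at 0. The 10 basal and myoepithelial genes summed to 51.5 to 158, 6.82 to 10.1 and 0.06 to 0.85 FPKM in the same order, and 7, among them Krt5, Krt14 and Trp63, were at 0 in BAT. The 9 smooth muscle genes, 4 of which are also on the basal list, summed to 42.5 to 135, 8.16 to 16.1 and 7.40 to 8.44 FPKM. The 7 fibroblast genes summed to 14.6 to 24.8, 21.5 to 115 and 3.39 to 11.6 FPKM. Macrophage, lymphocyte, endothelial, skeletal muscle and ovarian or uterine lists summed to at most 16.6 FPKM in any library, against 3415 or more for brown and beige markers. The part of these cells in the ribosomal protein results was not tested.

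Ribosomal protein mRNAs were abundant and ordered alike in every library. The median member had a mean of 47.8 FPKM over the 8 libraries (quartiles 29.9 and 71.9), against 3.18 FPKM for the median of 8958 genes tested. There were 11 members at 100 FPKM or more and 15 under 20, and the 8 highest held 28.8% of the members' FPKM. Rank order of the 82 members tested was alike between libraries of 1 depot (Spearman's rho 0.88 to 0.96 over 7 pairs) and between depots (0.76 to 0.94 over 21 pairs), as a description. Rpl41, which encodes the smallest ribosomal protein, stood first, with FPKM of 285, 269 and 158 in iWAT, 268 and 227 in pgWAT, and 417, 479 and 292 in BAT. Rpl10a came second and is described below. Rplp2, an acidic protein of the stalk that recruits translation factors, had 159, 180 and 77.4 FPKM in iWAT, 134 and 119 in pgWAT, and 303, 222 and 216 in BAT. For both genes every BAT library stood above every library of the other depots. Rps29, Rps28, Rpl23a, Rplp1 and Rpl19 completed the 8 highest, with means of 156, 144, 140, 132 and 132 FPKM. At the low end of the tested members stood Rps27 (1.31), Rpl30 (3.04), Rps19bp1 (3.64) and Rpl39l (3.85), of which Rps27 and Rpl30 share their exons with another gene model.

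**Figure D1:**
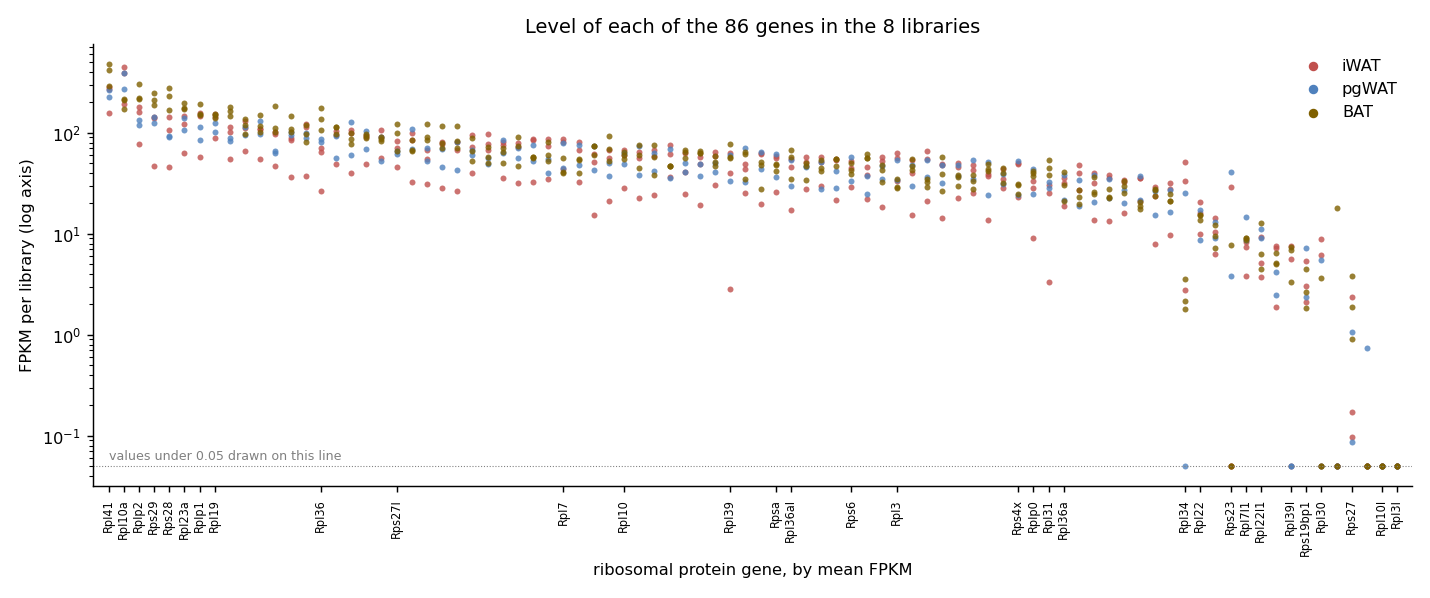
FPKM of each of the 86 ribosomal protein genes (x axis, ordered by mean, with some of them named) in the 8 libraries (points, coloured by depot; log axis). Of the 86 genes, 60 had a mean from 20 to 100 FPKM, and iWAT 3 gave the lowest point in 62 of the 71 genes at 20 FPKM or more.

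The levels of 6 members could not be read from their own entry, because a second gene model on the same strand covered much of their exons. Among these were Rpl26 (with Gm15772), Rpl30 (Gm12191), Rpl34 (an entry named Rpl34-ps1), Rps23 (Gm15450) and Rps27 (Gm9846), in which the shared stretch was 60% to 95.8% of the member's exonic bases. Rpl34 and Rpl34-ps1 shared 401 bases on chr3 (mm9, minus strand; Rpl34 at chr3:130429749-130433226), and the FPKM moved between them from library to library. Rpl34 had 51.3, 2.80 and 33.0 FPKM in iWAT, 25.5 and 0.0009 in pgWAT, and 2.15, 1.78 and 3.60 in BAT. Rpl34-ps1 had 0.0007, 80.7 and 0.0014 in iWAT, 39.5 and 25.3 in pgWAT, and 62.3, 61.6 and 62.7 in BAT. In every library but pgWAT 1 one model was near 0 or far below the other, in pgWAT 1 both were well above 0, and their sum was 51.3, 83.5 and 33.0 in iWAT, 65.0 and 25.3 in pgWAT, and 64.5, 63.4 and 66.3 in BAT. Rpl26, with 18.04 FPKM in BAT 3 and under 0.001 elsewhere, was not tested on its own, and its summed locus gave 21.5 to 71.5 FPKM in iWAT, 32.7 to 44.6 in pgWAT and 38.7 to 43.3 in BAT. Rpl3l, the striated muscle form of Rpl3, and Rpl10l, the testis form of Rpl10, were also not tested and were listed at 0 in all 8 libraries.

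**Figure D2:**
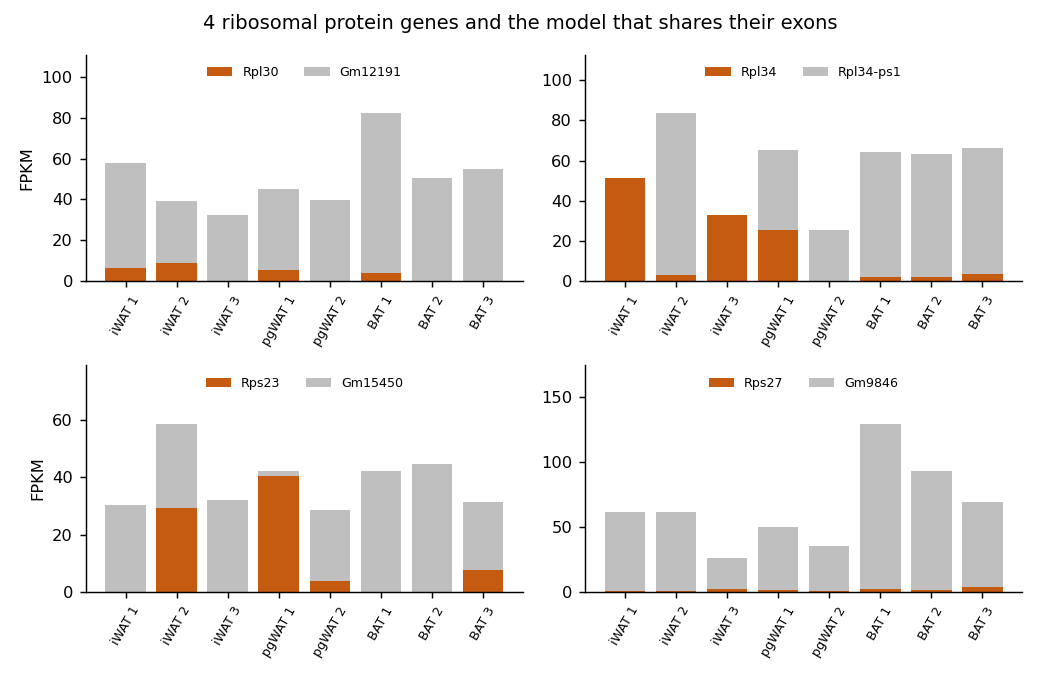
FPKM in the 8 libraries of 4 ribosomal protein genes (orange) and, stacked on top, of the gene model that shares their exons (grey). The division between the 2 models changed widely from library to library for Rpl34 and Rps23, whereas Gm9846 held at least 90.7% of the Rps27 sum. The summed height of Rpl34 ranged from 33.0 to 83.5 in iWAT and from 25.3 to 65.0 in pgWAT. In BAT, where Rpl34-ps1 held 94.6% to 97.2% of it, it lay between 63.4 and 66.3.

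The members held a larger part of the FPKM in BAT than in pgWAT, with iWAT between. Their summed FPKM was 3.85%, 4.11% and 3.42% of all FPKM in iWAT (mean 3.795% ± 0.35 SD, n = 3), 2.67% and 2.69% in pgWAT (2.68% ± 0.01, n = 2), and 5.004%, 4.36% and 4.19% in BAT (4.52% ± 0.43, n = 3). No library of one depot overlapped another depot. The order was the same with the overlapping models added in, at 3.64% to 4.38%, 2.79% to 2.84% and 4.48% to 5.37%. As an absolute sum the depots overlapped: 2597 to 5783 FPKM in iWAT, 3973 and 5508 in pgWAT, and 5127 to 6480 in BAT. Large-subunit genes exceeded small-subunit genes in summed FPKM by a ratio of 1.73 to 1.77 in iWAT, 1.75 and 1.76 in pgWAT, and 1.58 to 1.68 in BAT. With Rpl10a left out, a check added after seeing the data, the ratio was 1.53 to 1.57 in iWAT, 1.56 and 1.57 in pgWAT, and 1.49 to 1.59 in BAT, and the depots overlapped. Summed FPKM is a sum over genes, and no test was made on it. Short genes outside the members stood in the same order of depots. Those under 500 nt, set against those of 2000 nt or more, gave log2 values of 0.35 to 0.54 in BAT. The values were -0.17 to -0.08 in iWAT and -0.65 to -0.33 in pgWAT. The share was not adjusted for transcript length, and the part of length in it was not tested.

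**Figure D3:**
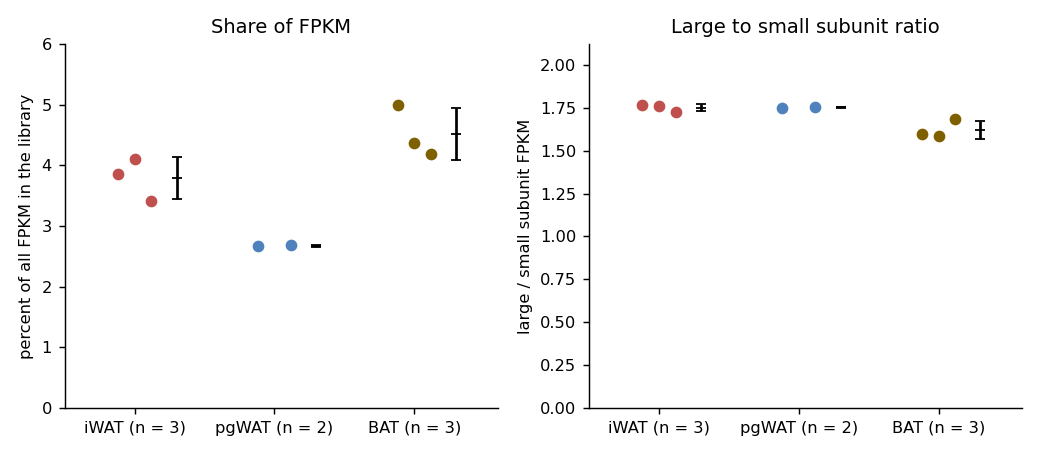
Left, summed FPKM of the ribosomal protein genes as a percent of all FPKM in each library; right, ratio of large- to small-subunit summed FPKM. Points are libraries, and bars beside them show mean ± SD (n = 3, 2 and 3). The shares, not adjusted for transcript length, lay from 3.42% to 4.11% in iWAT, at 2.67% and 2.69% in pgWAT and from 4.19% to 5.004% in BAT. With Rpl10a left out, the ratio in BAT (1.49 to 1.59) overlapped that elsewhere (1.53 to 1.57), with BAT 1 and BAT 2 still below the other depots.

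The first comparison asked how beige adipocytes of iWAT differ from brown adipocytes. In limma's test on log2(FPKM + 1) with Benjamini-Hochberg adjustment over 8958 genes, 3 of 82 members were called lower in iWAT (background 0.469% of genes) and 1 higher (background 1.73%). Without adjustment, 14 were lower and 3 higher at p under 0.05, beside 3.14% and 5.39% of all genes. The members' median log2 difference was -0.25 (quartiles -0.66 and 0.01) against 0.03 for all genes tested, and 60 of 82 lay below 0. Without iWAT 3 the median was 0.16, with 2 members called lower and 3 higher (background 0.403% and 3.36%). In 15 members all iWAT libraries lay below all BAT libraries (background 5.37%), and in Rps3, a small-subunit protein that also acts in DNA repair, all lay above (background 6.81%).

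The 3 genes that fell encode small basic proteins of either subunit. Rpl36, a large-subunit protein (mm9 chr17:56752818-56753669, 4 exons), had 70.8, 64.2 and 26.3 FPKM in iWAT and 175, 136 and 108 in BAT. All iWAT libraries were lower than all BAT libraries, with a ratio of means of 0.39, a log2 difference of -1.45 (SE 0.38) and adjusted p = 0.016 in limma. Rps28, a small-subunit protein (mm9 chr17:33959982-33961443, 4 exons), had 106, 143 and 45.5 FPKM in iWAT and 275, 230 and 169 in BAT. These groups did not overlap either, with a log2 difference of -1.31 (SE 0.37) and limma's adjusted p = 0.033. Rpl31, a large-subunit protein at the rim of the exit tunnel (mm9 chr1:39424696-39428755, 5 exons), had 25.6, 30.4 and 3.35 FPKM in iWAT and 54.0, 38.6 and 44.6 in BAT. Its lowest value, in iWAT 3, rested on 6 estimated fragments, and its log2 difference was -1.59 (SE 0.45, limma's adjusted p = 0.034). Rpl31 shares 414 exonic bases with Tbc1d8 on the opposite strand, and whether strand was used in counting is not given in the sources used here.

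These calls depended on single libraries. Leaving out each of the 8 libraries in turn, Rpl36 kept limma's call in 6 of 8 fits, with log2 differences from -1.71 to -1.01, and lost it without BAT 1 or BAT 2 (adjusted p up to 0.26). Rps28 lost it without iWAT 1 or any 1 of the BAT libraries (up to 0.36), and Rpl31 without iWAT 3 or any 1 of the BAT libraries (up to 0.17). Without iWAT 3 the Rpl31 difference was -0.68, and after median-ratio scaling, which brings the libraries to a common median, it was -1.64 (adjusted p = 0.052). The single gene called higher, Rpl34 (log2 difference 2.46, SE 0.58, adjusted p = 0.0054), was one of those that share a locus. It lost the call without iWAT 1 or iWAT 3, and after scaling it was 2.51 and not called (adjusted p = 0.24). Its value differed widely within iWAT, and its sum with Rpl34-ps1 gave -0.30 (SE 0.39, adjusted p = 0.99). With all 6 such loci summed, 3 of 84 members were lower and 0 higher in limma (background 0.491% and 1.79%), with 14 lower and 1 higher at an unadjusted p under 0.05 (3.17% and 5.41% of all genes).

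Other members lay below BAT without passing the test. The largest such value was that of Rpl39 (-1.57, limma's adjusted p = 0.077), described below. Rps29 had a log2 difference of -1.12 (limma's adjusted p = 0.096), Rplp2 -0.90 (0.27), Rplp0 -0.90 (0.48), Rpl23a -0.79 (0.44) and Rpl41 -0.75 (0.38). Rplp0, the stalk base often used as a reference gene for RNA levels, had 28.6, 33.1 and 9.19 FPKM in iWAT and 41.9, 39.8 and 37.0 in BAT. On the other side, besides Rpl10a, stood Rpl30 (1.31, adjusted p = 0.28; its summed locus gave -0.54) and Rpl3, a core large-subunit protein near the peptidyl transferase centre (0.66, adjusted p = 0.75). After median-ratio scaling of the libraries, limma called 12 members lower and 1 higher (background 1.63% and 2.98%). The single higher one was Rpl10a.

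**Figure D4:**
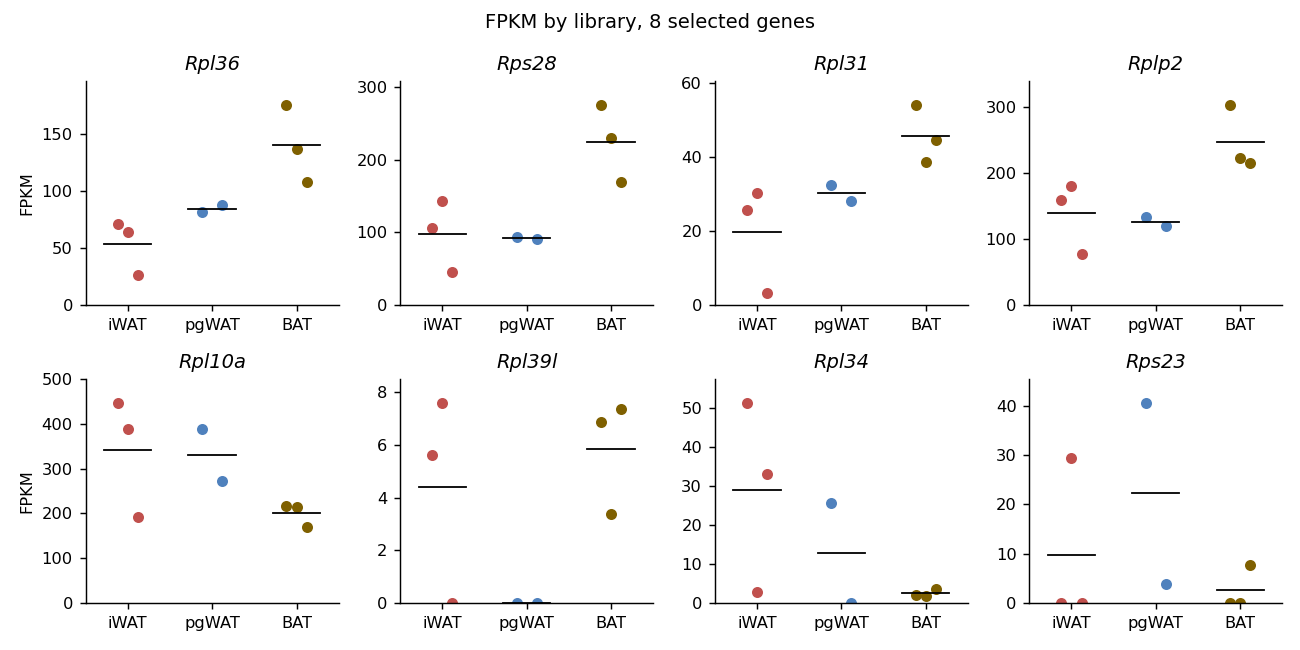
FPKM of 8 ribosomal protein genes in each library (points) with group means (lines), on axes that start at 0. In Rpl36, Rps28, Rpl31 and Rplp2 every BAT library stood above every other library, whereas Rpl34 and Rps23, which share exons with another gene model, varied widely between replicates.

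The second comparison set beige adipocytes of pgWAT against BAT. Here limma called 1 member lower in pgWAT (background 0.268%) and 1 higher (background 4.91%). At an unadjusted p under 0.05, 7 were lower and 1 higher, beside 1.11% and 20.4% of all genes. The members' median log2 difference was -0.14, whereas that of all genes tested was 0.52, so that the members lay 0.66 below the genes around them. Median-ratio scaling moved the all-gene median to 0.02 and the members' median to -0.81, 0.83 below. On that scale limma called 38 of 82 members lower and 0 higher (background 3.49% and 2.61%), and at an unadjusted p under 0.05 there were 61 lower and 0 higher, beside 11.4% and 9.0% of all genes. On the deposited scale, 23 members had both pgWAT libraries below all BAT libraries (background 3.72%), and 3 had both above (Rpl4, Rps3 and Rpl10a; background 48.3%).

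The genes that leaned lowest in pgWAT were short and abundant. Rps28 had 93.9 and 90.7 FPKM in pgWAT, below each BAT library, with a log2 difference of -1.24 (SE 0.41, limma's adjusted p = 0.057) that was -1.92 (adjusted p = 0.0036) after scaling. Rps21, a small-subunit protein, had 65.5 and 63.4 FPKM in pgWAT and 183, 111 and 101 in BAT (log2 difference -0.97, adjusted p = 0.17; scaled -1.64, adjusted p = 0.0065). Rplp2 differed by -0.94 (limma's adjusted p = 0.15; scaled -1.62, adjusted p = 0.003). Rpl36 had 81.5 and 87.4 FPKM, a log2 difference of -0.69 (adjusted p = 0.31; scaled -1.37, adjusted p = 0.013). Without iWAT 3, which only enters the shared estimate of spread here, limma called 10 members lower and 1 higher, and calls also rose over all genes (background 0.918% and 13.9%).

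The member called lower in pgWAT was Rpl39l, and the member called higher was Rps23. Rps23, the small-subunit protein at the decoding centre, had 40.6 and 3.82 FPKM in pgWAT and was under 0.001 in BAT 1 and BAT 2 and 7.72 in BAT 3 (log2 difference 2.78, SE 0.70, adjusted p = 0.008 in limma). It shares 495 bases with Gm15450, and the summed locus had 42.1 and 28.5 FPKM in pgWAT against 42.2, 44.8 and 31.3 in BAT, a log2 difference of -0.17 (adjusted p = 0.81). The call was also lost without iWAT 1, iWAT 3 or pgWAT 1, with differences down to 1.23, and after median-ratio scaling, at 2.24 (adjusted p = 0.43). With the shared loci summed, limma called 1 of 84 members lower and 0 higher in pgWAT (background 0.279% and 5.18%), and 7 and 0 were so at an unadjusted p under 0.05 (1.09% and 20.5% of all genes).

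Rpl39 and Rpl39l form the pair in which a paralog itself was called. Rpl39 lines the exit tunnel of the large subunit, and Rpl39l is its paralog, best known from the male germ line. Their coding sequences, from GENCODE M21 transcripts, are 153 bases each without the stop codon and are 85.0% identical, and 0 near-identical copies of Rpl39l were found. They are shown because reads can tell them apart at the 23 differing bases, in capitals.
Rpl39: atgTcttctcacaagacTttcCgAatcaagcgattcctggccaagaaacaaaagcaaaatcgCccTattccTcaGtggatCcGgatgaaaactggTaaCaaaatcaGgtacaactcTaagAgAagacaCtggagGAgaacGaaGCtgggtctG
Rpl39l: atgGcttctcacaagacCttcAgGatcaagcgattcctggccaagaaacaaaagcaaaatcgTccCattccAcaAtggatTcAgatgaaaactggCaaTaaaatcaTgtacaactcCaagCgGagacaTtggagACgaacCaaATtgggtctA
Rpl39l (mm9 chr16:10170321-10175004, 3 exons) had 6.85, 3.36 and 7.36 FPKM in BAT, 5.62, 7.60 and 0 in iWAT, and was listed at 0 in both pgWAT libraries. These values rested on 9, 5 and 11 estimated fragments in BAT and 9, 12 and 0 in iWAT, so that counting error was large. The log2 difference of pgWAT to BAT was -2.72 (SE 0.50, limma's adjusted p = 0.0001), called in all 8 fits that leave out a library (adjusted p up to 0.0022) and lost with no filter on low values (0.21). The difference of iWAT to pgWAT was 1.94 (SE 0.50, adjusted p = 0.038) and lost limma's call without iWAT 1, iWAT 2 or pgWAT 1 (up to 0.26). After median-ratio scaling the difference was 1.83 and not called (adjusted p = 0.51). Rpl39 (mm9 chrX:34622515-34625179) had 39.9, 63.2 and 2.85 FPKM in iWAT, 60.8 and 33.5 in pgWAT, and 56.4, 76.7 and 57.7 in BAT, and passed in no comparison. Its iWAT value of 2.85 was again in iWAT 3, on 2 estimated fragments.

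Of the other paralogs, some stood far below the standard form and some near or above it. Rpl7l1 had 3.86 to 14.6 FPKM against 40.4 to 87.0 for Rpl7, and Rpl22l1 had 3.72 to 12.9 against 8.73 to 20.5 for Rpl22. In pgWAT 2 Rpl22l1 exceeded Rpl22 (11.2 against 8.73). Rpl36al exceeded Rpl36a in 7 of 8 libraries at 17.3 to 67.6 FPKM against 18.7 to 41.4, and their coding sequences are 87.7% identical. Rps27l, a p53-inducible paralog of Rps27, had 70.9, 82.8 and 45.8 FPKM in iWAT, 66.2 and 62.2 in pgWAT, and 100, 122 and 66.5 in BAT. Rps27 alone had 0.09 to 3.84 FPKM, but summed with Gm9846 the Rps27 locus had 25.6 to 61.7 in iWAT, 35.5 and 50.2 in pgWAT, and 69.3 to 129 in BAT. The log2 differences of that summed locus to BAT were -1.01 in iWAT and -1.14 in pgWAT (limma's adjusted p = 0.25 and 0.11). Rps4x, the X-linked small-subunit protein, had 23.0 to 52.1 FPKM and Rps4y2, a pseudogene in RefSeq, 6.29 to 14.4. Rps19bp1 had 1.83 to 7.29 FPKM. Rps6 had 29.1 to 52.4 FPKM in iWAT, 33.3 and 58.2 in pgWAT, and 38.9 to 50.1 in BAT, and Rpsa, the laminin-receptor protein of the small subunit, had 25.7 to 59.4, 36.3 to 62.0 and 42.1 to 48.9 in the same order. In both, the groups overlapped and no comparison passed.

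Rpl10a, the subunit that carries GFP in the usual TRAP design, stood high among the members, and its ratio to them differed by depot. Rpl10a (mm9 chr17:28465416-28467978, 6 exons) had 447, 389 and 192 FPKM in iWAT, 388 and 273 in pgWAT, and 216, 213 and 171 in BAT. Divided by the median of the other 85 members in the same library, it was 8.15, 6.72 and 7.53 times that median in iWAT (mean 7.46 ± 0.72 SD, n = 3), 7.24 and 7.48 times in pgWAT (7.36 ± 0.17, n = 2), and 3.93, 4.26 and 3.64 times in BAT (3.95 ± 0.31, n = 3). It was the highest member in every iWAT and pgWAT library and ranked 4, 5 and 5 in BAT, with no overlap. A two-sided exact permutation test of this ratio gave p = 0.10 for iWAT and 0.20 for pgWAT against BAT, which are the smallest p-values that 3 against 3 and 2 against 3 libraries allow (0.30 for both after Benjamini-Hochberg adjustment over 3 comparisons). In limma the log2 difference of iWAT to BAT was 0.69 (SE 0.33, adjusted p = 0.51), 1.06 without iWAT 3 (adjusted p = 0.0046) and 0.69 after median-ratio scaling (adjusted p = 0.035). For pgWAT to BAT it was 0.71 (adjusted p = 0.24) and 0.03 after scaling (adjusted p = 0.96). A difference of this size was not particular to Rpl10a. For iWAT to BAT it was 0.68 in Rpl5, 0.66 in Rpl3 and 0.62 in Rps3, while 60 of 82 members lay below 0. As a percent of Ucp1 FPKM, Rpl10a was 29.8 to 32.5 in iWAT, 21.3 to 24.3 in pgWAT and 13 to 15.3 in BAT. Reads of a tagged transgene and of the gene itself cannot be told apart in these files, and the labels do not name the tagged protein.

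The differences from BAT tended to rise with transcript length, in the members and in other genes, though not to the same extent. In iWAT against BAT the median log2 difference was -0.73 in the 16 members of 300 to under 500 nt, -0.25 in the 24 of 500 to under 700 nt and -0.10 in the 25 of 700 to under 1000 nt. Other genes of the same lengths had medians of -0.39, -0.43 and -0.17, and those of 2000 nt or more 0.07. The 13 members with the TOP motif at the listed start, median length 536 nt, had a median of -0.27, and the 49 tested members without it, 752 nt, had -0.21. In pgWAT against BAT the members' medians were -0.59, -0.14 and -0.09. Other genes had -0.31, -0.18 and 0.15, and those of 2000 nt or more had 0.61. There, the 13 members of 1000 to under 2000 nt had 0.04, beside 0.39 in other genes, and the 4 longer members had -0.06. The correlation with log2 length across the 82 members was 0.49 for iWAT to BAT and 0.43 for pgWAT to BAT. Across 8876 other genes it was 0.19 and 0.34. For iWAT to pgWAT the signs differed, at 0.17 in the members and -0.26 in other genes. These are values of Spearman's rho, as a description, since genes share libraries. Per library, non-member genes under 500 nt exceeded those of 2000 nt or more, each relative to its mean over libraries, by a log2 value of 0.35 to 0.54 in BAT. The same quantity was -0.17 to -0.08 in iWAT and -0.65 to -0.33 in pgWAT. The part of fragment length or of RNA quality in this was not tested.

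**Figure D5:**
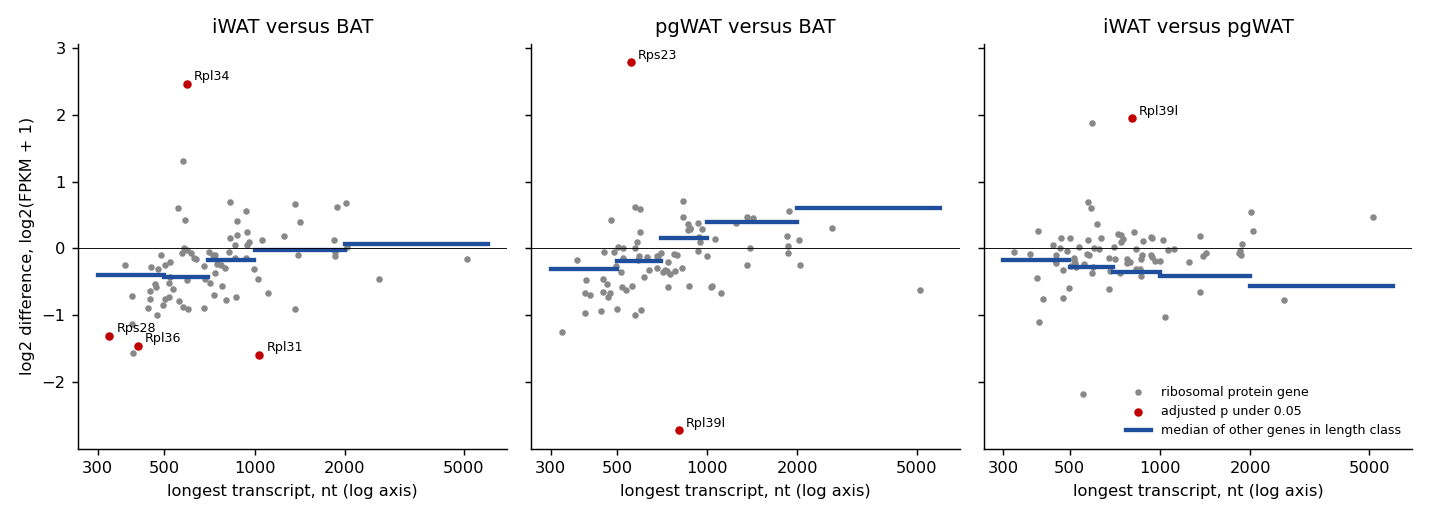
Log2 difference on the log2(FPKM + 1) scale against longest transcript length (log axis) for the 82 tested ribosomal protein genes (points; red where limma's adjusted p was under 0.05), with the median of other genes in 5 length classes (blue). In iWAT against BAT the members under 500 nt had a median of -0.73 beside -0.39 for other genes of that length.

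With the trend on length taken out of each library, an alternative chosen after seeing the data, the members' median was 0.00 for iWAT to BAT, -0.19 for pgWAT to BAT and 0.18 for iWAT to pgWAT. On that scale limma called Rpl36 lower in iWAT than BAT (log2 difference -0.93, adjusted p = 0.033; background 0.748%). It called Rpl10a (0.92, adjusted p = 0.0073), Rpl3 (0.68, 0.046) and Rpl37a (0.80, 0.046), a zinc-finger protein of the large subunit, higher (background 2.56%). Between pgWAT and BAT it called 4 members lower, among them Rpl39l, Rpl13a and Rps15a, and 0 higher (background 0.86% and 2.48%), with 14 lower and 1 higher at an unadjusted p under 0.05 (7.47% and 9.4% of all genes). Rps15a, the longest member at 5134 nt, differed by -0.62 (limma's adjusted p = 0.40) before the removal and by -1.28 (0.030) after it. Rps28 was not called in either comparison with the length trend removed (limma's adjusted p = 0.10 and 0.12). Between iWAT and pgWAT it called 0 members (background 0.48% higher and 0.0223% lower), with 17 higher and 1 lower at an unadjusted p under 0.05 (4.13% and 3.38% of all genes). Rpl37a, Rpl13a, Rps15a, Rps21, Rps3, Rpl4, Rpl5, Rpl21, Rpl28 and Rpl35 are named here outside the rule for named genes, after their values were seen.

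Between the beige depots few members were called, and the sign of their median depended on scale. Relative to all genes tested, their median lay higher in iWAT on the deposited, scaled and length-removed scales, by 0.20 on the last. For iWAT to pgWAT the members' median was -0.09 while that of all genes was -0.50, and after median-ratio scaling the values were 0.57 and -0.01, so the direction turned but the members stood 0.41 and 0.58 above the genes around them. Limma called 1 member higher, Rpl39l (background 0.301%), and 0 lower (background 0.402%), and at an unadjusted p under 0.05 there were 2 higher and 3 lower, beside 1.22% and 11.2% of all genes. After scaling it called 1 higher, Rpl5, a large-subunit protein of the 5S particle (1.197, adjusted p = 0.049; background 0.313%), and 0 lower (background 0.0%). On that scale 50 were higher and 0 lower at an unadjusted p under 0.05, beside 4.8% and 2.76% of all genes. With shared loci summed it called Rpl39l alone, higher (background 0.29%), and 0 lower (background 0.436%). All iWAT libraries lay below both pgWAT libraries in 3 members (Rpl7l1, Rpl36 and Rpl28; background 27.5%) and above in 1 (Rpl37a; background 1.44%). The lowest values besides Rps23, whose locus is shared, were those of Rpl39 (-1.09) and Rpl31 (-1.03, limma's adjusted p = 0.40 and 0.39), in both of which iWAT 3 was the low library. These comparisons share libraries, so their values are not independent.

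Other parts of the translation machinery gave few calls. Of 76 mitochondrial ribosomal protein genes, which build the ribosome of the organelle, all were tested. In iWAT against BAT limma called 3 lower and 0 higher (background 0.469% and 1.73%), at a median of -0.34, with 12 lower and 0 higher at an unadjusted p under 0.05. After scaling it called 10 lower (background 1.63%). Mrpl42, a subunit of that ribosome, had 27.9, 29.0 and 14.9 FPKM in iWAT, 35.3 and 45.5 in pgWAT, and 83.6, 103 and 73.9 in BAT (iWAT to BAT log2 difference -1.86, SE 0.39, adjusted p = 0.00098). Mrps36 (-1.54, adjusted p = 0.0085) and Mrpl36 (-1.44, adjusted p = 0.046) were the others that fell in limma, and in all 3 genes the iWAT and BAT libraries did not overlap. In pgWAT against BAT limma called 0 of the 76, with 2 lower at an unadjusted p under 0.05, at a median of 0.04, and 13 lower after scaling (background 3.49%). Of 11 tested elongation factors, 41 initiation factors and 57 ribosome biogenesis genes, limma called 0 in each of the 3 comparisons. At an unadjusted p under 0.05 there were 0 elongation factors in each, 4 initiation factors and 6 biogenesis genes higher in pgWAT than BAT, 3 biogenesis genes lower in iWAT than BAT, and 6 biogenesis genes and 1 initiation factor lower in iWAT than pgWAT. Over all genes the shares at that threshold were 20.4% higher in pgWAT than BAT, 3.14% lower in iWAT than BAT and 11.2% lower in iWAT than pgWAT. After scaling limma called 2 biogenesis genes lower in iWAT and 1 in pgWAT against BAT. Their medians for iWAT to BAT were 0.02, 0.02 and -0.05, and for pgWAT to BAT 0.35, 0.61 and 0.38. Eef1a1, the elongation factor that brings aminoacyl-tRNA and a known TOP mRNA, had 333 ± 117 (SD, n = 3) FPKM in iWAT, 386 in pgWAT and 298 in BAT on average, with limma's adjusted p of 0.99 and 0.52 against BAT.

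Of 27 TOP genes outside the members, limma called only Hnrnpa1, higher in pgWAT than BAT (1.63, adjusted p = 0.016, background 4.91%). It had 2.03 and 3.45 FPKM in pgWAT against at most 0.65 in BAT, and the call was lost after scaling. Its value was 1.4e-05 in iWAT 1, 5.1e-06 in BAT 1 and 0.003 in BAT 2. Overlap with other gene models was looked up only for members. After scaling limma called 1 of the 27 higher and 1 lower in iWAT against BAT (background 2.98% and 1.63%). In pgWAT against BAT it called 0 higher and 2 lower (background 2.61% and 3.49%). Fau, a fusion that yields a small-subunit protein, and Gnb2l1, the Rack1 scaffold of the small subunit, passed in no comparison. Of 21 tested regulators of ribosome supply and TOP translation, 1 was called: Myc, a transcription factor that drives ribosome production. Myc had 1.17, 0.17 and 0.66 FPKM in iWAT, 1.08 and 0 in pgWAT, and 3.81, 1.098 and 6.14 in BAT. It was lower than BAT in both beige depots in limma (-1.37, adjusted p = 0.047, and -1.53, adjusted p = 0.027, background 0.469% and 0.268%). In FPKM iWAT 1 lay above BAT 2, and 0 genes of this list were called after median-ratio scaling. At limma's unadjusted p under 0.05, 7 of the list were higher and 1 lower in pgWAT than BAT (20.4% and 1.11% of all genes). In iWAT, 1 was lower than in BAT and 4 were lower than in pgWAT (3.14% and 11.2% of all genes).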

How the data were processed

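Translating RNA of 8 libraries was processed with TopHat and Cufflinks on mm9, as listed without versions in the submitters' processing notes. The files deposited by the authors hold FPKM, a level per transcript length and sequencing depth, for 28702 transcripts as tagged text, together with other fields such as confidence bounds. No counts were used, and fragments were estimated here from FPKM, transcript length and the deposited upper confidence bound. Of the estimates under 8 fragments, 83.2% to 92.4% per library lay within 0.05 of a whole number.

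FPKM was summed per gene. Genes with at least 1 FPKM in 2 libraries and a transcript of at least 300 nt were tested with limma 3.58.1 (R 4.3.3, variance trend) on log2(FPKM + 1), 3 groups in 1 model, two-sided, with Benjamini-Hochberg adjustment within each comparison and calls at 0.05. Differences on this scale understate low genes. Alternatives (scaling, filters, pseudocounts, the samples fitted, single libraries left out, the replicate number as a block) were run, and length trend removal and merged models were added after the data were seen. The test was checked on simulated data. Median-ratio scaling divides each library by its median ratio to the geometric mean over genes. Length trends were fitted by lowess (span 0.3) on non-members. Overlapping models were summed where at least 100 exonic bases were shared. Pseudogene copies were searched with blastn 2.17.0 in GENCODE M21.

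Members and lists were chosen with earlier results of these data known. Named genes were the 8 highest and 4 lowest tested members, every called member, the 3 largest differences each way per comparison, the paralog pairs and Rpl10a, Rplp0 to Rplp2, Rpsa, Rps6 and Rps19bp1. Of each other list, the rule took the 3 genes with the highest mean and up to 4 called genes. A few genes are not reported here by name.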

Additional observations from a re-analysis of the deposited data

How the results depend on the processing

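Depth limits low members: iWAT 3, with 268233 estimated fragments, had a median of 33.2 per member. Called members in iWAT to BAT, pgWAT to BAT and iWAT to pgWAT were 4, 2 and 1 as reported. Over all 8958 genes tested, the calls were 197, 464 and 63, and these moved with the setting too. Called members were 13, 38 and 1 under median-ratio scaling (the same from non-members), beside 413, 547 and 28 over all genes. They were 13, 23 and 0 under quantile normalization or with the 10 most abundant genes removed. All-gene calls were then 407, 519 and 39 under quantile normalization and 443, 587 and 27 with those genes removed. Called members were 0, 1 and 0 with a pseudocount of 0.1 (all genes 131, 214 and 5). With a pseudocount of 5 they were 0 in iWAT to pgWAT (all genes 146). With no filter on low values they were 0 in each (all genes 11, 117 and 9 of 15148). With short genes kept they were 1, 1 and 0 (all genes 169, 379 and 40 of 9009). With a minimum FPKM of 5 they were 2 in iWAT to pgWAT (all genes 32 of 4089). Fits of only the groups compared gave 2, 5 and 2 (all genes 204, 575 and 35). No variance trend, or the most abundant transcript, gave 0 in iWAT to pgWAT (all genes 48 and 50). Length trend removal gave 4 in pgWAT to BAT and 0 in iWAT to pgWAT (all genes 299 and 45). Merged models gave 1 in pgWAT to BAT (all genes 489). The cause was not tested.

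Leaving out 1 iWAT or BAT library gave 1 to 6, 1 to 11 and 0 to 3 called members. Over all genes the calls were then 109 to 336, 258 to 1326 and 11 to 126. With any 1 library left out, pgWAT included, the members' medians ranged from -0.47 to 0.16, -0.46 to 0.093 and -0.36 to 0.30. So 1 library decided each sign: iWAT 3 in the first, pgWAT 2 in the second, and iWAT 3 or pgWAT 1 in the third. The median for pgWAT to BAT was -0.81 under either median-ratio scaling, -0.50 under quantile normalization and -0.54 with the 10 most abundant genes removed. For iWAT to pgWAT it was 0.57 under either median-ratio scaling.

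With the replicate number as a block, 7, 5 and 2 members were called (all genes 280, 418 and 88), and the pgWAT to BAT median was -0.40. Whether the numbers pair the samples is not settled, and the fits reported above used no pairing. Same-numbered iWAT and BAT libraries correlated at 0.13, 0.08 and 0.10, each best with its own number. Same-numbered iWAT and pgWAT libraries gave -0.03 and -0.09, and pgWAT and BAT libraries -0.01 and -0.02. These values are a hint from the data only.

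The share was 4.29%, 3.10% and 5.05% in iWAT, pgWAT and BAT without the 10 most abundant genes in the denominator. In pgWAT it was 2.73% without transcripts under 300 nt, 2.49% without Rpl10a and 2.82% with merged models. It ranged over 3.64% to 3.98%, 2.67% to 2.69% and 4.28% to 4.68% without single libraries.

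Rpl34 in iWAT to BAT turned from 2.46 to -0.30, and Rps23 in pgWAT to BAT from 2.78 to -0.17, with merged models. Of 2065 other comparisons of named members, 109 gained and 65 lost a call, and 182 changed sign without a call.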
